A study of Tursiops truncatus with 5 samples.

Results

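The BCL2 family genes described here are 10 genes that decide whether a cell lives or dies through its mitochondria. They are the pro-survival genes BCL2L1, BCL2, MCL1 and BCL2A1, the effectors BAX and BAK1, and the BH3-only genes BID, BCL2L11, BAD and BBC3. The members were found by their human Entrez Gene identifiers (598, 596, 4170, 597, 581, 578, 637, 10018, 572 and 27113, in the order just given). They took 11 of the 25877 transcripts of the deposited table and 10 of its 7671 genes with such an identifier. BAX had 2 transcripts, which were summed, and each other gene had 1. All 10 symbols occur in the RefSeq gene table of the bottlenose dolphin, although the transcripts themselves were assembled de novo from reads and matched to human proteins.

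Whole blood of 3 managed, healthy and untreated bottlenose dolphins was measured in 5 libraries, all from 2013. Keo, a female of 12 years, gave the libraries of July and September, Hua, a male of 5 years, that of June, and Pele, a female of 28 years, those of April and June. None of the 5 RNA samples had been depleted of globin, because they were too dilute for it. Libraries of 1 animal are dates of that animal, so the SD given here mixes animals and dates. A test between Keo and Pele compares these libraries and not ages or sexes. Both libraries of Pele precede both of Keo, so animal and time of year cannot be told apart in it.

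Pro-survival BCL2 proteins sit on the outer mitochondrial membrane and hold BAX and BAK1 inactive. BH3-only proteins respond to damage or to loss of growth signals, bind the pro-survival proteins and so release BAX and BAK1, which open the membrane and start the death of the cell. Blood cells differ in the pro-survival protein they rely on. In mice BCL2L1 (BCL-XL) keeps maturing red cells alive and sets the lifespan of platelets, MCL1 is needed by neutrophils, and BCL2A1 is a gene of activated granulocytes and other leukocytes.

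The values are TPM, which state each transcript's share of 1000000 transcripts per library and keep no read depth, so the counting error behind each value is unknown. A pair of genes with Entrez Gene identifiers 3043 and 3040 took 55.9% to 74.4% of the summed TPM. Their share was 74.4% in Keo July and 69.6% in Keo September, 72.2% in Hua June, and 63.7% in Pele April and 55.9% in Pele June. Because TPM are shares of a total, whatever the pair takes is lost to every other gene. Each level is therefore given as deposited and also rescaled to 1000000 without the 4 transcripts of this dominant pair.

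MCL1 was the most abundant of the 10 genes, at 77.9 ± 24.2 deposited TPM and 236 ± 31.04 rescaled TPM (SD, n = 5 libraries). BCL2A1 followed with 109 ± 28.5 rescaled TPM, BCL2L1 with 70.6 ± 40.1, BAX with 58.3 ± 4.51, BID with 29.2 ± 4.59, BBC3 with 19.6 ± 2.45 and BAK1 with 15.4 ± 2.68. BCL2, BAD and BCL2L11 were low, at 5.77 ± 1.34, 5.45 ± 1.45 and 3.38 ± 1.13 rescaled TPM. TPM is scaled by transcript length, so levels of different genes can be set side by side, with a limit. The transcripts were assembled de novo and may be partial, and pieces of a gene without an identifier were not added to it. MCL1 lay above BCL2A1, BAX above BID, and BAK1 above BCL2 in 5 of 5 libraries without any overlap of their rescaled ranges. BCL2A1 exceeded BCL2L1 in 3 of 5 libraries and BCL2L1 exceeded BAX in 3 of 5. The ranges of those neighbours overlapped and their order changed between libraries. BCL2L1 lay above BAX in Keo and Hua and below it in Pele. The ranges of BCL2 and BAD overlapped too, and BCL2 was higher in 2 of 5.

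**Figure D1:**
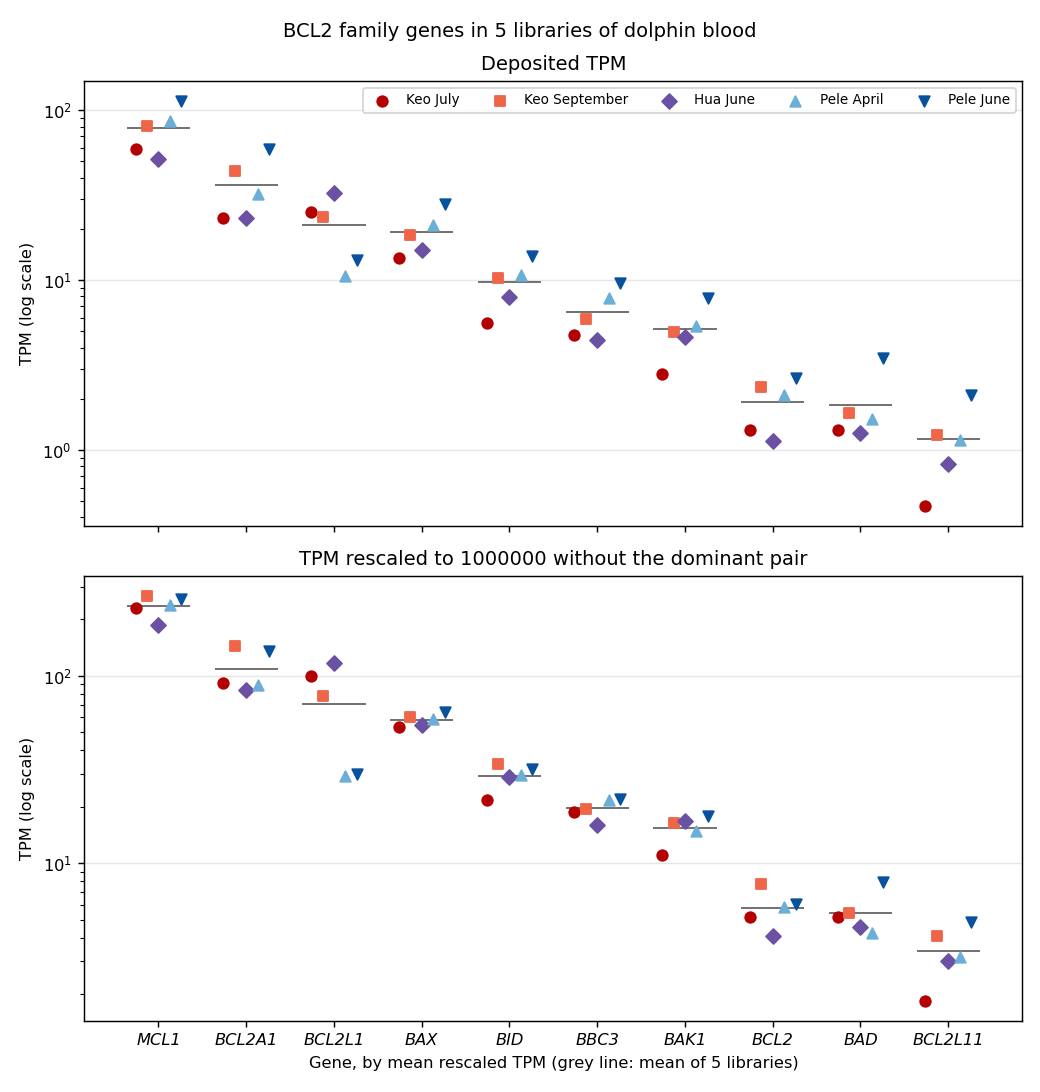
TPM of the 10 genes (log scale) in each library, as deposited (upper panel) and rescaled to 1000000 without the dominant pair (lower panel), with the mean of 5 libraries as a grey line. BCL2L1 stands at 77.7 to 117 rescaled TPM in the libraries of Keo and Hua and at 29.1 and 29.8 in those of Pele, while BAX stays between 53.2 and 64.4.

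The 4 pro-survival genes made up most of the summed TPM of these 10 genes. Their sum was 73.3% to 79.3% of the TPM of the 10 genes, against 11.9% to 14.8% for BAX and BAK1 and 8.83% to 11.9% for the BH3-only genes. The ratio of the 4 pro-survival genes to the 6 death genes was 3.82 in Keo July, 3.54 in Keo September, 3.17 in Hua June, 2.74 in Pele April and 2.88 in Pele June. It was lower in both libraries of Pele than in the others. What differed more was which gene supplied the pro-survival part.

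BCL2L1 encodes BCL-XL. Its deposited level was 25.3 TPM in Keo July and 23.5 in Keo September, 32.4 in Hua June, and 10.5 in Pele April and 13.04 in Pele June. It was high in the libraries of Keo and Hua and low in both of Pele, with no overlap between animals. The other 9 genes had their highest deposited level in Pele June, the library with the smallest dominant pair, and BCL2L1 did not. After rescaling BCL2L1 was at 99.3 TPM in Keo July, 77.7 in Keo September, 117 in Hua June, 29.1 in Pele April and 29.8 in Pele June. The highest library exceeded the lowest 4.02-fold, a wider range than that of 97.2% of all features, whose median was 1.58-fold. The 2 libraries of Pele differed by 1.02-fold, and Keo September had 0.782 of the level of Keo July. Most of the range of BCL2L1 thus lay between libraries of different animals. The dates of Keo were all later than those of Pele, so animal and date cannot be told apart in that contrast.

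MCL1 encodes a short-lived protein that blocks BAK1 and BIM. Its deposited level was 58.8 and 80.4 TPM in Keo (July and September), 51.5 in Hua, and 86.2 and 113 in Pele (April and June). Hua was lowest and the libraries of Keo lay below those of Pele. Rescaled, the levels were 231 and 266 TPM in Keo, 186 in Hua, and 239 and 258 in Pele. The ranges of Keo and Pele then overlapped, Hua remained lowest, and the whole range was 1.43-fold.

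BCL2A1 encodes a small relative of BCL2 that is switched on by inflammatory signals. It was at 91.6 rescaled TPM in Keo July, 144 in Keo September, 83.8 in Hua June, 89.3 in Pele April and 136 in Pele June. Within Keo and within Pele the later library was the higher, but Hua June lay low and Pele June high. The later library had 1.57 times the rescaled level of the earlier in Keo and 1.52 times in Pele, and the levels of Keo and Pele overlapped. BCL2, the founding gene of the family and a survival factor of lymphocytes, stayed between 4.09 rescaled TPM in Hua June and 7.74 in Keo September. The 4 libraries of Keo and Pele overlapped.

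The contrast of BCL2L1 with MCL1 and BCL2A1 was drawn within each library, where the ratio does not depend on the dominant pair. BCL2L1 per MCL1 was 0.430 in Keo July and 0.292 in Keo September, 0.629 in Hua June, and 0.122 in Pele April and 0.116 in Pele June. The ratio averaged 0.361 ± 0.0975 in Keo and 0.119 ± 0.00434 in Pele (SD, n = 2 each), and its geometric mean was 2.98-fold higher in Keo. BCL2L1 per BCL2A1 was 1.08 and 0.540 in Keo, 1.398 in Hua, and 0.326 and 0.220 in Pele, with a geometric mean 2.86-fold higher in Keo. The TPM of BCL2L1 thus exceeded that of BCL2A1 in Keo July and in Hua and was the lower in the other 3 libraries. MCL1 per BCL2A1 moved much less, from 1.85 to 2.68 over the 5 libraries, with Keo at 2.52 and 1.85 and Pele at 2.68 and 1.90. Neither ratio of BCL2L1 overlapped between Keo and Pele, but an exact permutation test of 2 against 2 libraries has 6 arrangements and cannot go below p = 0.333, two-sided, which is the value that both ratios gave.

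**Figure D2:**
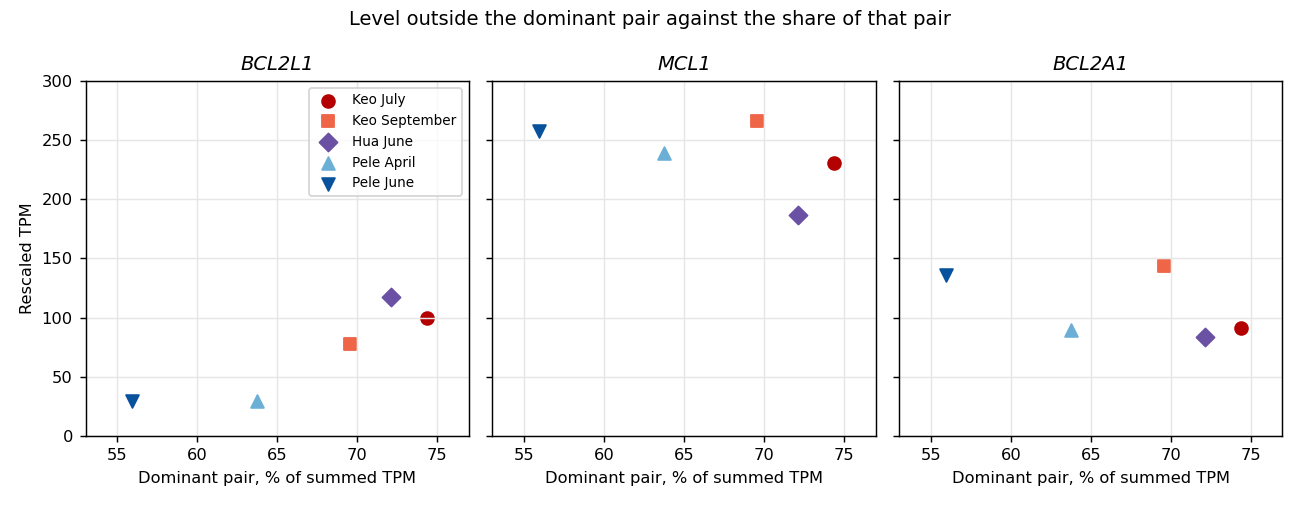
Rescaled TPM of BCL2L1, MCL1 and BCL2A1 against the share of the summed TPM held by the dominant pair, 1 point per library. BCL2L1 lies at 29.1 and 29.8 TPM in the 2 libraries with the smallest share and at 77.7 to 117 in the 3 with the largest, and MCL1 and BCL2A1 show no such step.

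Within the 4 pro-survival genes, BCL2L1 supplied 23.3% of the TPM in Keo July, 15.7% in Keo September, 29.9% in Hua June, 8.02% in Pele April and 6.95% in Pele June. MCL1 supplied 54.1% and 53.7% in Keo, 47.6% in Hua and 65.8% and 60.0% in Pele. BCL2A1 took 21.4% to 31.6% and BCL2 1.04% to 1.60%. MCL1 was the largest contributor in every library.

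**Figure D3:**
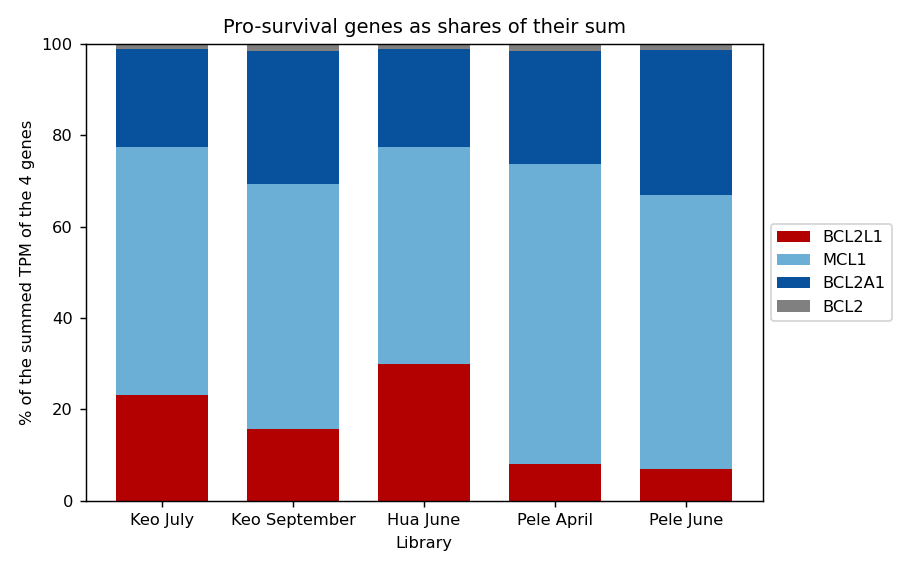
BCL2L1, MCL1, BCL2A1 and BCL2 as percent of their summed TPM in each library. The BCL2L1 part runs between 15.7% and 29.9% in Keo and Hua and is 8.02% and 6.95% in Pele.

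BAX, the effector that moves from the cytosol into the mitochondrial membrane, was the steadiest of the 10 genes after rescaling. Its rescaled level was 53.2 and 60.5 TPM in Keo, 54.6 in Hua, and 58.6 and 64.4 in Pele, a coefficient of variation of 7.74%. Of all features, 7.94% had a smaller range. The steadiness belonged to the sum of its transcripts. The main one had 38.2 and 56.2 rescaled TPM in Keo, 48.4 in Hua, and 50.04 and 57.8 in Pele, while the lesser one had 15.0 in Keo July and 4.30 to 8.60 in the other 4 libraries. BAK1, the effector that resides in the membrane, had 11 and 16.3 rescaled TPM in Keo, 16.7 in Hua, and 14.9 and 17.9 in Pele. Keo July was the low library, and the other 4 lay between 14.9 and 17.9.

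Among the BH3-only genes, BID, which links death receptors to mitochondria after cleavage by a caspase, had 21.8 and 34 rescaled TPM in Keo, 28.8 in Hua, and 29.7 and 31.7 in Pele. Both the lowest and the highest library were of Keo. BBC3 (PUMA), a target of p53, had 18.7 and 19.4 rescaled TPM in Keo, 16.0 in Hua, and 21.8 and 22.0 in Pele. Its dates agreed within 1.03-fold in Keo and 1.01-fold in Pele, and Keo lay below Pele without overlap. BAD, which is held inactive when survival kinases phosphorylate it, had 3.46 deposited TPM in Pele June and 1.26 to 1.64 in the other libraries. Rescaled, Pele June was still highest at 7.91 TPM, and Pele April was lowest at 4.22.

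BCL2L11 (BIM), which kills cells deprived of cytokines, was the lowest member, at 0.470 and 1.23 deposited TPM in Keo, 0.830 in Hua, and 1.14 and 2.11 in Pele. Its mean of 1.16 deposited TPM was close to the mean of 1 TPM that each deposited transcript reached. None of the 10 genes was listed at 0 in any library.

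Keo was compared with Pele by limma on log2(TPM + 1) over all features, with 1 coefficient per animal, and differences are Keo minus Pele on that scale, which understates the change of low genes. On deposited TPM 1 of the 10 genes, BCL2L1, was called higher in Keo at a limma adjusted p under 0.05. Of the 23642 features tested, 0.592% were called higher and 10.2% in either direction. None was called lower in Keo by limma, against 9.64% of all features, and 5 of the 10, BCL2L1 included, had an unadjusted p under 0.05, as did 35.0% of all features. The log2 difference of BCL2L1 was 1.00 (standard error 0.32, limma adjusted p = 0.029). The other 9 were below 0, between -0.66 for BAK1 and -0.27 for BCL2, and the median of all features was -0.43. Both libraries of Keo lay below both of Pele in 5 of the 10 genes (MCL1, BAX, BAK1, BID and BBC3), against 68.1% of all features. Both lay above in BCL2L1, as in 2.77% of all features, so that 6 of the 10 did not overlap, against 70.9% of all features.

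On rescaled TPM the median of all features was -0.05, and BCL2L1 was again the 1 gene of the 10 that limma called, with 1.07% of 23640 features called higher in Keo, 0.766% lower and 1.84% in either direction. Its log2 difference was 1.54 (standard error 0.15, limma adjusted p = 0.0034), the mean level being 88.5 TPM in Keo and 29.5 TPM in Pele. No other member had an unadjusted p under 0.05, which 15.3% of all features had. MCL1 differed by -0.00 (standard error 0.13), BCL2A1 by 0.06 (standard error 0.25), BAX by -0.11 (standard error 0.13) and BBC3 by -0.19 (standard error 0.14). The widest of the others was BCL2L11, at -0.37 with a standard error of 0.36. Without overlap BCL2L1 lay higher in Keo (19.8% of all features did) and BBC3 lower (28.1%), against 47.9% of all features without overlap in either direction.

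On deposited TPM the difference of BCL2L1 stayed between 0.85 and 1.14 without any 1 library of Keo or Pele, but with limma adjusted p of 0.13 to 0.54. On rescaled TPM it was called without Keo July (1.37) or Keo September (1.72), not without Pele April (1.53, limma adjusted p = 0.071), without Pele June (1.56, limma adjusted p = 0.076) or without the trend of variance on level (1.54, limma adjusted p = 0.055). With a library left out, that animal has 1 sample, which is assumed to vary like the dates of the other animal, so the calls kept without a library of Keo rest on the spread between the 2 libraries of Pele and on the limma prior.

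**Figure D4:**
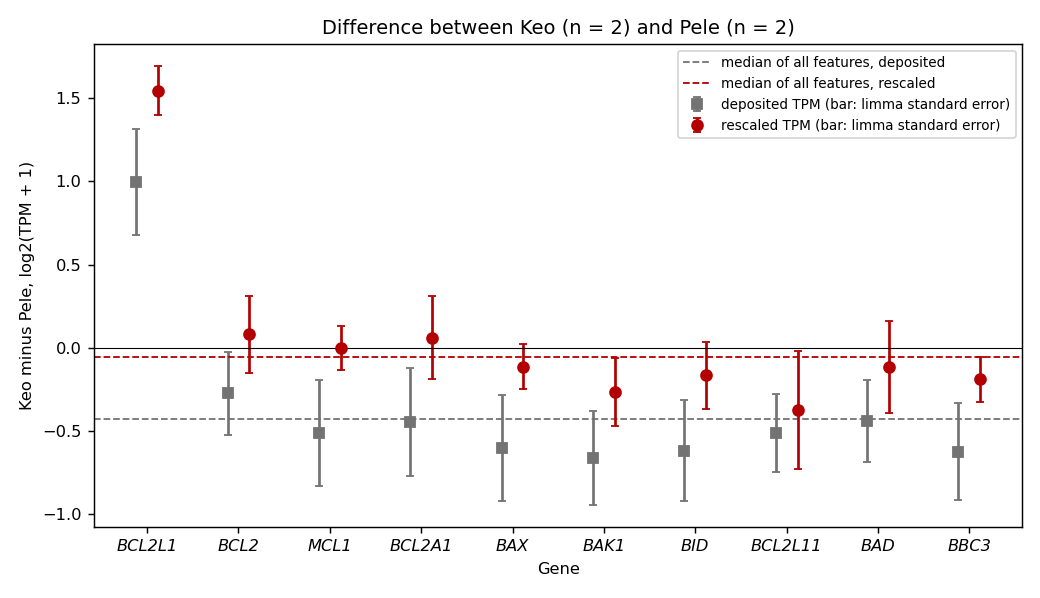
Keo minus Pele in log2(TPM + 1) for the 10 genes, on deposited TPM (squares) and on rescaled TPM (circles), with limma standard errors and the median of all features as dashed lines. BCL2L1 is at 1.00 and 1.54, and the other 9 genes lie between -0.66 and -0.27 as deposited and between -0.37 and 0.08 after rescaling.

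The genes whose rescaled profile lay closest to that of BCL2L1 were sought among 473 features with a description in the supplementary tables of the study and a mean of at least 5 rescaled TPM. Closeness was the root mean square difference of log2(TPM + 1), centred over the 5 libraries. The closest was BCL2/adenovirus E1B 19kDa interacting protein 3-like (BNIP3L), a BH3 domain protein that clears mitochondria from maturing red cells, with a difference of 0.15. The next were ring finger protein 11, a ubiquitin ligase adaptor (0.18), and hydroxymethylbilane synthase, an enzyme of heme synthesis (0.28). The median of the 473 was 0.92, and the other 9 members lay between 0.92 and 1.08. BNIP3L, summed over its 11 transcripts, had 1085 and 759 rescaled TPM in Keo, 1140 in Hua, and 386 and 332 in Pele. BCL2L1 per BNIP3L was 0.0916 and 0.102 in Keo, 0.103 in Hua, and 0.0755 and 0.0898 in Pele, a range of 1.36-fold, against 5.43-fold for BCL2L1 per MCL1. These genes were picked for their likeness over 5 libraries, so the small differences are a description.

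The profile of MCL1 was closest to chromosome 19 open reading frame 38 (0.04), ring finger protein 122 (0.05) and the G protein subunit alpha inhibiting activity polypeptide 3 (0.05), against a median of 0.21. That of BCL2A1 was closest to U2AF homology motif kinase 1, death-associated protein kinase 1 and alkaline ceramidase 3 (0.15 each), against a median of 0.32. MCL1 and BCL2A1 differed from each other by 0.21, near the median for MCL1. BBC3, BCL2 and BAX lay closer to MCL1, at 0.11, 0.11 and 0.13. From BCL2L1, MCL1 and BCL2A1 differed by 0.96 and 0.99, where the median of the described features was 0.92.

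**Figure D5:**
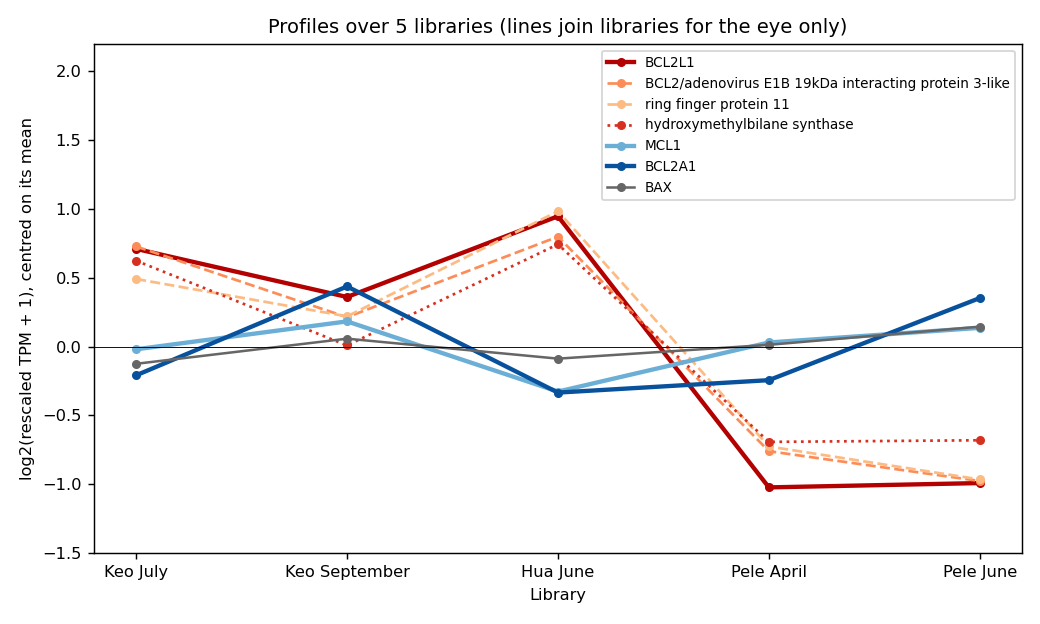
Profiles over the 5 libraries of log2(rescaled TPM + 1), each centred on its own mean, for BCL2L1 and its 3 closest described genes, and for MCL1, BCL2A1 and BAX. The BCL2L1 group is above its mean in Keo and Hua and below it in Pele, whereas BAX stays near 0 in each library.

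Blood holds many cell types, and in bulk RNA fewer cells of a type and less RNA per cell cannot be told apart. Marker lists, limited to genes with a description, were therefore measured beside the family. Of 8 red cell genes, 7 were measured. No transcript of the deposited table was matched to Kruppel-like factor 1, a defining factor of red cell precursors. The summed level of the 7 was 1526 and 1117 rescaled TPM in Keo, 1666 in Hua, and 758 and 637 in Pele. BNIP3L, the gene already picked for its likeness to BCL2L1, made up 71.1% and 68.0% of that sum in Keo, 68.4% in Hua, and 50.9% and 52.1% in Pele. Without it, a choice made after seeing the data, the other 6 summed to 441 and 358 rescaled TPM in Keo, 526 in Hua, and 372 and 305 in Pele, so that Keo and Pele overlapped. On deposited TPM the 6 summed to 112 and 108 in Keo, 145 in Hua, and 134 and 134 in Pele, with Keo below Pele. Of the 7 genes, 6 lay higher in both libraries of Keo than in both of Pele on rescaled TPM, as did 19.8% of all features, and 4 on deposited TPM, as did 2.77%. The median difference of the list was 0.90 on rescaled TPM, where that of all features was -0.05, and 0.37 on deposited TPM, where that of all features was -0.43. Limma called 2 of them higher in Keo on rescaled TPM, against 1.07% of all features, and none on deposited TPM, against 0.592%. They were BNIP3L (log2 difference 1.34, limma adjusted p = 0.015) and hydroxymethylbilane synthase (1.00, limma adjusted p = 0.0496). Both had already been picked for their likeness to BCL2L1. On rescaled TPM the exception among the 7 genes was stomatin, a membrane protein of red cells that other cells also make. It had 113 and 101 rescaled TPM in Keo, 74.8 in Hua, and 172 and 150 in Pele. Limma called stomatin lower in Keo on deposited TPM (-1.08), where 9.64% of all features were, and not on rescaled TPM (-0.58).

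The summed levels of the lists of other cells were lower in both libraries of Keo than in both of Pele, but most of their genes were not called. Of 10 neutrophil and other myeloid genes, the 9 with a transcript summed to 1343 and 1665 rescaled TPM in Keo, 1041 in Hua, and 1761 and 1838 in Pele. The 10 lymphocyte genes summed to 958 and 1078 in Keo, 893 in Hua, and 1154 and 1245 in Pele, and the 3 platelet genes, which leukocytes also express, to 504 and 578 in Keo, 412 in Hua, and 601 and 588 in Pele. On rescaled TPM Hua was lowest in each of these 3 lists. It was also lowest for MCL1, BCL2A1, BCL2 and BBC3, and for stomatin of the red cell list. On rescaled TPM limma called 1 gene lower in Keo in the myeloid list, sialic acid binding Ig-like lectin 5 (-0.78). It called 1 in the lymphocyte list, granzyme H (-2.29), where 0.766% of all features were called lower. On deposited TPM it also called CCAAT/enhancer binding protein delta (-0.94) and SH2 domain containing 1A (-1.06) lower, where 9.64% of all features were. The median differences of the myeloid, lymphocyte and platelet lists were -0.13, -0.15 and -0.12 on rescaled TPM, near the -0.05 of all features. Both libraries of Keo lay below both of Pele in 3 of the 9 myeloid and 5 of the 10 lymphocyte genes, against 28.1% of all features. They lay above them in 1 myeloid gene, acyloxyacyl hydrolase (0.23), and in 2 lymphocyte genes, against 19.8% of all features. The lymphocyte genes were the killer cell receptor KLRD1 (0.41) and chemokine (C motif) ligand 1 (0.52). These 3 genes above Pele were named after their values were seen. The part of these cell types in the levels of BCL2L1, MCL1 and BCL2A1 was not tested.

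Other genes of cell death were followed in a list of 20, all with a transcript. Their median difference was -0.53 on deposited TPM and -0.09 on rescaled TPM, where the medians of all features were -0.43 and -0.05. On deposited TPM limma called none higher and 1 lower in Keo, death effector domain containing 2, which binds caspases (-0.95, adjusted p = 0.036), where 9.64% of all features were called lower. On rescaled TPM it called 1 higher, BNIP3L (1.34, adjusted p = 0.015), where 1.07% of all features were, and none lower. The most abundant after BNIP3L were caspase 1, the protease that activates interleukin 1 beta, and serum/glucocorticoid regulated kinase 1, a survival kinase. Caspase 1 had 369 and 469 rescaled TPM in Keo, 310 in Hua, and 329 and 329 in Pele, and serum/glucocorticoid regulated kinase 1 had 252 and 281 in Keo, 191 in Hua, and 278 and 301 in Pele. Neither was called between Keo and Pele.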

How the data were processed

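Total RNA of 5 whole blood samples, not depleted of globin, was sequenced. The authors deposited 1 table of TPM values for transcripts of a de novo assembly. The submitters' notes list Trimmomatic, Bowtie2 and RSEM (version 1.2.21). The paper's methods speak of FPKM, but each deposited column sums to nearly 1000000 and was read as TPM. All transcripts of the table average 1 TPM or more and are above 0 in 3 or more libraries. TPM keeps no read depth, so the SD given is the spread between libraries. Replicates are dates of 1 animal, and p-values refer only to these libraries. The limma p-values draw on the spread of all features, and on deposited TPM not on a gene's own spread. The labels give a code, sex and age for each animal, and the names are those that the paper gives for that sex and age.

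Rows sharing an Entrez Gene identifier were summed, and rows without one stayed single features. Values were rescaled to 1000000 without the rows of Entrez Gene identifiers 3043 and 3040, for which the sources used here give no gene names. The contrast of Keo with Pele came from limma (version 3.58.1, R 4.3.3), using lmFit and then eBayes with a trend, on log2(TPM + 1) over all 5 libraries. P-values were adjusted by Benjamini-Hochberg over all features, with a threshold of 0.05. The prior degrees of freedom were 6.05 on rescaled TPM. On deposited TPM limma estimated them as infinite, and the trend alone then set a gene's standard error. Hua has 1 library and no test. Ratios were compared by an exact permutation test. Other steps used Python 3.11.15, pandas 2.3.3, numpy 2.4.6 and matplotlib 3.10.9.

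Alternatives were a pseudocount of 0.1 TPM, a mean of at least 5 TPM, single transcripts in place of sums, no trend, quantile normalization, a common median, and leaving out each library. Ratios of BCL2L1 to the other members and the red cell list without its most abundant gene were added after seeing the data. The rule for named genes took the 10 members, the called and the 3 most abundant genes of each list, and the 3 closest profiles of BCL2L1, MCL1 and BCL2A1. For the marker lists the summed level stands in for the most abundant genes. Names of other genes came from 607 pairs of identifier and description in the study's supplementary table of co-expression modules, a selected set. The members and lists were chosen with earlier results of these data known.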

Additional observations from a re-analysis of the deposited data

Results flagged for a closer look

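Of 22 sets of 5 values examined (the 10 genes on both scales and the ratios of BCL2L1 to MCL1 and to BCL2A1), 1 held a library far from the other 4, where chance gives about 1 in 20. BAD had 3.46 deposited TPM in Pele June against 1.26 to 1.64 TPM in the other libraries. Rescaled, the 7.91 TPM of Pele June against 4.22 to 5.42 TPM was no longer set apart by that measure.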

How the results depend on the processing

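On deposited TPM 2418 features were called between Keo and Pele (140 higher and 2278 lower in Keo). A mean of at least 5 TPM gave 504 (36 higher, 468 lower), quantile normalization 346 (138 lower) and rescaling without the dominant pair 434 (253 higher, 181 lower). Leaving out 1 library gave 339 to 2383 (65 to 141 higher, 274 to 2242 lower), with the lowest counts without Keo July and the highest without Hua, and 0 to 1 members called. On rescaled TPM no trend gave 66 calls (30 higher, 36 lower) and 0 members. Leaving out 1 library gave 24 to 719 (16 to 331 higher, 8 to 388 lower), with the lowest counts without Pele June and the highest without Keo September, and 0 to 1 members called. The cause was not tested. Without 1 library BCL2L1 differed by 0.85 to 1.14 on deposited and 1.37 to 1.72 on rescaled TPM, BCL2L1 per MCL1 by 1.30 to 1.86 and BCL2L1 per BCL2A1 by 1.01 to 2.02 (log2). The mean summed TPM of the 10 genes was 181 as deposited, 553 rescaled and 163 to 191 without 1 library.

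Members that changed sign were never called. From below 0 on deposited TPM, BCL2, MCL1 and BCL2A1 came to 0.10, 0.011 and 0.075 under quantile normalization, and BCL2 and BCL2A1 to 0.081 and 0.060 under rescaling. On rescaled TPM MCL1 came to 0.061 at a common median. Over libraries left out, the rescaled differences ran between -0.17 and 0.34 for BCL2, -0.10 and 0.10 for MCL1, -0.26 and 0.38 for BCL2A1, -0.47 and 0.14 for BID, -0.79 and 0.042 for BCL2L11, and -0.50 and 0.27 for BAD. Of 100 differences of single members with a library left out, 8 changed direction. Leaving out Hua could not change a difference, because Hua has its own coefficient. Under other settings 99 of 106 kept direction and call, most of them differences of members never called. BCL2L1, the only member called, lost its call on deposited TPM with any 1 library of Keo or Pele left out. On rescaled TPM it lost its call without either library of Pele. No paired analysis was possible because the replicate numbers were given in accession order and do not come from the labels. TPM keeps no depth, so the counting error of low genes such as BCL2L11 is unknown.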
